A study of Homo sapiens with 14 samples.

Results

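The MYCN locus was taken as the stretch of chromosome 2 from 15700000 to 17000000 (hg19), a window of 1.3 Mb in which MYCN lies at 16080683 to 16087129. All open chromatin peaks of 14 ATAC-seq libraries that fell in this window were used, and overlapping peaks were merged into regions. The locus held 370 of the 335269 regions of the whole set, and 2331 of the 1971391 deposited peaks. Within the window every peak was taken by position, whatever its value.

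In ATAC-seq the Tn5 transposase cuts accessible DNA and tags it for sequencing. RH30, an alveolar rhabdomyosarcoma line, received 200 nM of QC6352, a small molecule inhibitor of the KDM4 histone demethylases, or 0.1% DMSO. In another RH30 experiment the hairpins shKDM4B-813 or shKDM4B-814, both against the demethylase gene KDM4B, or a control hairpin (shCtrl) were introduced, with a stated time of 72 h. LHCN, an immortalised human myoblast line, expressed PAX3-FOXO1 or carried an empty vector for 72 h. RH30 cells bear their own PAX3-FOXO1 fusion in every group, the controls included. Each of the 7 groups held 2 libraries, and each tissue was represented by a single cell line. The labelled cell types could not be checked against marker genes, since gene positions other than that of MYCN were not used here, and the level of KDM4B was not measured by this assay.

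MYCN encodes a transcription factor of the MYC family, which pairs with MAX at E-boxes and drives growth, ribosome production and cell cycle entry. It is active in embryonic muscle and nerve precursors and is normally switched off as cells mature, and high MYCN is known from neuroblastoma and from fusion-positive rhabdomyosarcoma. PAX3-FOXO1 joins the DNA-binding domains of PAX3 to the activation domain of FOXO1, and in rhabdomyosarcoma it binds mostly far from gene starts and is known to drive MYCN. KDM4 enzymes remove methyl groups from histone H3, which makes enhancers and gene starts of such targets the places to look in KDM4-perturbed cells.

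The promoter of MYCN is printed because the locus is mapped by distance from it. The 250 bases before the RefSeq start, on the plus strand of GRCh38.p14 at chr2:15940300-15940549, were matched to MYCN by gene name and not by coordinate, since the peak lists use hg19.
MYCN promoter: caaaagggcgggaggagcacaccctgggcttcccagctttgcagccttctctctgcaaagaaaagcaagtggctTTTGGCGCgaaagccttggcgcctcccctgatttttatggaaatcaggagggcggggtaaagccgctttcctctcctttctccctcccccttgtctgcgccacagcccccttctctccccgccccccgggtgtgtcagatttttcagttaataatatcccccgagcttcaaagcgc
Capitals mark the letters TTTGGCGC, an E2F-type element that begins 176 bases before the start and stands in 0.652% of 35116 RefSeq promoter windows, searched on both strands from 250 bases before to 50 after each start. In the MYCN window the PAX-type core GTCACG, a homeodomain palindrome, the E-boxes CAGCTG and CACGTG, and the AP-1 site TGANTCA each had 0 matches. These letters stand in 9.02%, 0.45%, 17.9%, 7.26% and 7.71% of the windows, in that order. In the RefSeq order of genes on GRCh38, DDX1, MYCNUT and MYCNOS lie before MYCN, and GACAT3 and CYRIA lie after it. No region was assigned to any of these neighbours.

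Peaks carry a rank within their own list, with 1 for the strongest by the authors' −log10 q, and a fold over background given by the authors' peak caller. The 14 lists held 93488 to 176899 peaks. The QC6352 libraries stood furthest apart within a group, with 111272 and 176899 peaks in replicates 1 and 2. All lists of an experiment were therefore trimmed to equal length before regions were called open or closed, so that a rank among the kept peaks counts from the top of lists of the same length. A region counted as open in a library where at least 1 bp of it was covered by a kept peak. A missing peak says that none passed the authors' limit or the trimming, not that the DNA was closed.

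The MYCN locus was open at many places in RH30 and at few in vector LHCN cells. As deposited, the RH30 lists of QC6352 replicates 1 and 2 had 156 and 343 peaks in the locus, against 163 and 187 in those of DMSO. They held 152 and 171 with shKDM4B-813, 120 and 141 with shKDM4B-814, and 200 and 212 with shCtrl. LHCN lists held 184 and 155 with PAX3-FOXO1 and 77 and 70 with vector. The vector libraries were the lowest of all 14, and the PAX3-FOXO1 libraries fell within the range of RH30.

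With every list trimmed to its 93488 strongest peaks, the 10 RH30 libraries held 90 to 157 locus peaks, on average 124.7 ± 20.8 (SD, n = 10). The 4 LHCN libraries held 36 to 81, on average 57.25 ± 23.6 (SD, n = 4). The difference of 67.45 peaks had an exact two-sided permutation p of 0.000999, or 0.00599 after Benjamini-Hochberg adjustment over 6 comparisons, and no RH30 library overlapped with LHCN. It depended on the strength of the peaks counted. With the lists as deposited the difference was 63 (exact permutation p = 0.116), and among peaks at or above a −log10 q of 10 it was -13.35 (exact permutation p = 0.275), the other way round. The libraries of a line come from the same cells, so cell line, culture and any other difference between the experiments cannot be told apart.

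**Figure D1:**
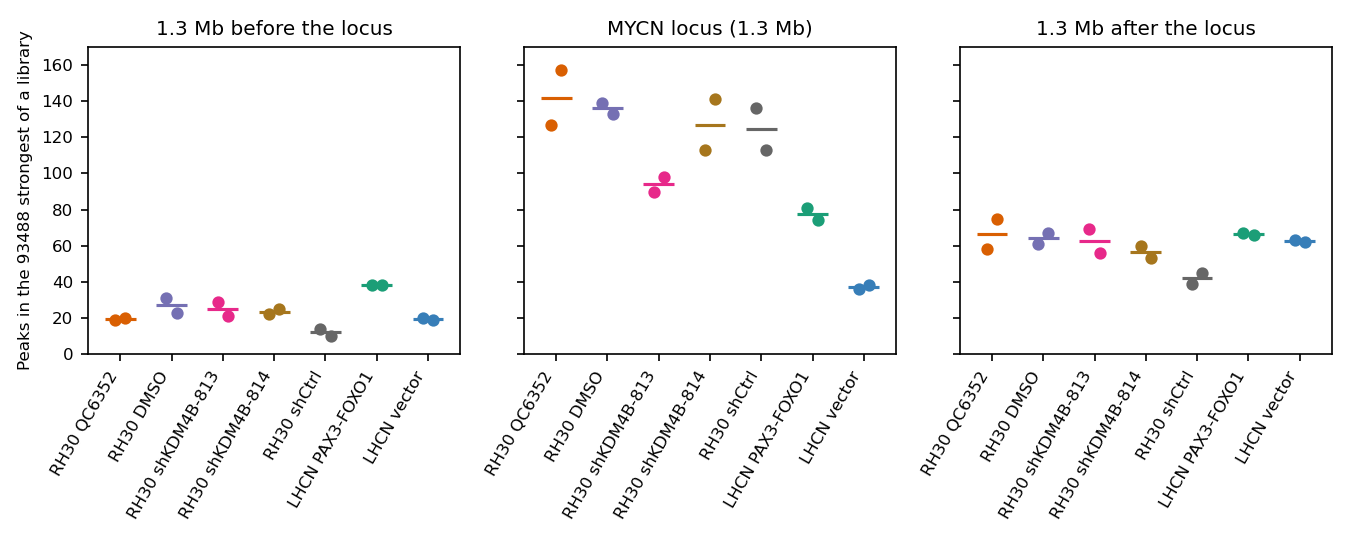
Peaks in the MYCN locus in each of the 14 libraries, with each list trimmed to its 93488 strongest peaks, beside the flanks of 1.3 Mb before and after it; points are libraries and bars are group means. RH30 libraries sit at 90 to 157 in the locus, above PAX3-FOXO1 LHCN cells at 81 and 74 and vector LHCN cells at 36 and 38.

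Flanks of 1.3 Mb on either side averaged fewer peaks in RH30 than in LHCN with its 2 groups pooled. The flank before the locus held on average 21.4 ± 6.31 peaks in RH30 (SD, n = 10) and 28.75 ± 10.7 in LHCN (SD, n = 4). The flank after it held 58.3 ± 10.9 in RH30 and 64.5 ± 2.38 in LHCN. The LHCN groups differed in the flank before the locus, with 38 and 38 peaks with PAX3-FOXO1 and 20 and 19 with vector. More peaks with PAX3-FOXO1 were thus not particular to the locus, and vector alone lay below the RH30 mean in that flank. In the flank after it they held 67 and 66 with PAX3-FOXO1 and 63 and 62 with vector. The locus held 47.9 to 72% of the peaks of locus plus flanks in RH30 and 30.3 to 43.5% in LHCN. Within LHCN it was 43.5 and 41.6% with PAX3-FOXO1 and 30.3 and 31.9% with vector. The difference between the lines of 24.2 percentage points, a measure added after seeing the data, had an exact two-sided permutation p of 0.000999. This p was not adjusted. It compares libraries of 1 RH30 line and 1 LHCN line with treatments pooled, and says nothing of other tumour or myoblast lines.

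A large share of the LHCN regions of the locus was open with PAX3-FOXO1 alone. In LHCN the trimmed lists held 173 and 155 locus peaks with PAX3-FOXO1 and 74 and 68 with vector. The means were 164 ± 12.7 and 71 ± 4.24 (SD, n = 2 each), a difference of 93 peaks with an exact permutation p of 0.333, which is the smallest that 2 libraries against 2 can give in any comparison below. Of the 176 regions open in any LHCN library, 59 were gained, that is, open in each PAX3-FOXO1 library and in none with vector, which is 33.5%. Over all regions of the genome the same call covered 8.14%. The reverse pattern was met by 1 region, or 0.568%, against 8.48% over all regions. In all 4 LHCN libraries 50 of the 176 regions were open, or 28.4%, a smaller share than the 109447 of 227305 regions over the genome.

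Of the 59 gained regions, 58 had no peak at all in the vector lists as deposited. Over the genome, 17820 of the 18498 gained regions met that stricter rule. As shares of the regions open in any LHCN library, these were 33% in the locus and 7.84% over the genome. The region lost met the rule too, as did 19073 of the 19283 lost over the genome, with shares of 0.568% and 8.39%. Gained regions were 242 to 6128 bp wide with a median of 429 bp. Cut into windows of 1.3 Mb, the genome had 2235 windows with a region in LHCN, and 1 of them held more gained regions than this one. The locus was chosen with earlier results of these data known, so this place is a description. Without PAX3-FOXO1 replicate 2 the count became 89.

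Gained regions lay on both sides of MYCN, 14 before and 45 after its start, from 361.0 kb before to 839.6 kb after. The window itself reaches only 380.7 kb before the start and 919.3 kb after it, so these counts cover unequal lengths. The bin of 300 to 400 kb after the start held the most, with 13, and the 100 kb just after the start held 9. The regions open in both vector libraries lay elsewhere for the most part, 23 of them at 700 to 800 kb and 8 at 300 to 400 kb before the start. From 100 kb before to 600 kb after the start, each 100 kb bin held at most 1 region open in both vector libraries.

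**Figure D2:**
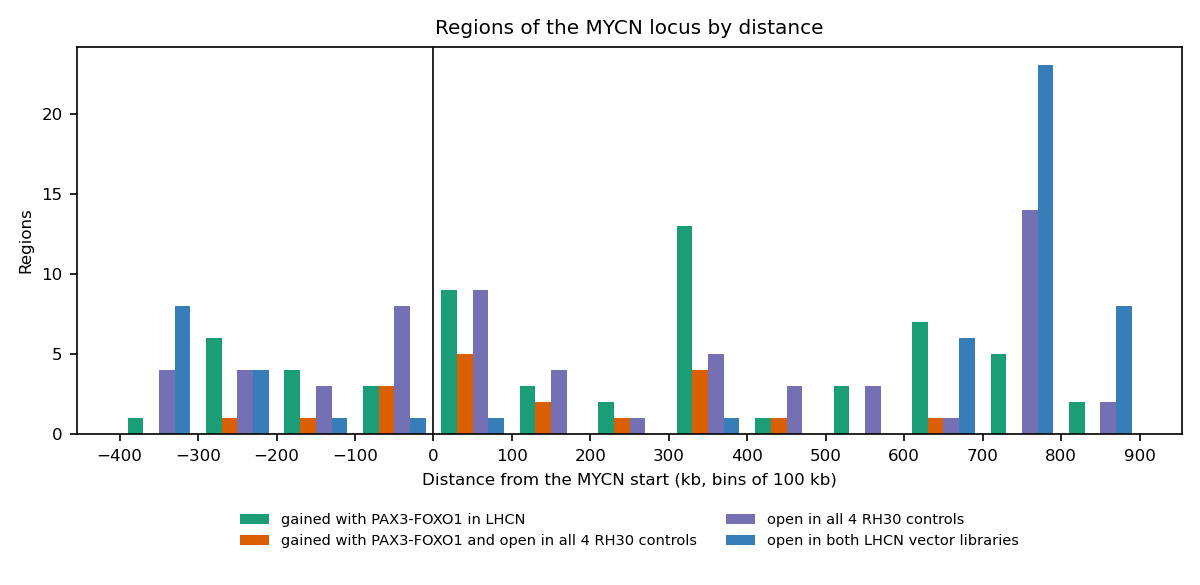
Number of regions per 100 kb bin (vertical axis) by distance from the MYCN start in kb (horizontal axis), for regions gained with PAX3-FOXO1, gained and open in all 4 RH30 control libraries, open in those 4 controls, and open in both vector libraries. Gained regions peak at 13 in the bin of 300 to 400 kb, and regions of vector cells at 23 in the bin of 700 to 800 kb.

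The strongest gained regions were also strong in RH30. The region at chr2:16381008-16387135, 303.4 kb after the MYCN start, ranked 5946 and 10598 with PAX3-FOXO1 and had no vector peak. The authors' fold was 40 and 42 there. The one at 316.8 kb after the start, chr2:16396965-16398043, ranked 10223 and 11721 with PAX3-FOXO1, again with no vector peak. Next was chr2:16028080-16032081, 50.6 kb before the start, with ranks of 12727 and 15768, folds of 29.7 and 35.2, and no vector peak.

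In the RH30 controls these 3 regions ranked within the top 3039 peaks of every list. The region 50.6 kb before MYCN ranked 161 and 122 with DMSO and 244 and 162 with shCtrl, and was the only region of the locus within the top 1000 of all 4 RH30 controls. The region at 303.4 kb ranked 167 and 193 with DMSO but 1786 and 1622 with shCtrl. The region at 316.8 kb ranked 317 and 431 with DMSO, and 3039 and 2154 with shCtrl. The DMSO and shCtrl libraries come from separate experiments, and their ranks did not overlap at any of these regions.

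Further gained regions were open in all 4 RH30 controls. The region at 97.5 kb (chr2:16176819-16179581) was weak with PAX3-FOXO1, at ranks 87952 and 90563, and strong in RH30, at 360 and 288 with DMSO and 1094 and 551 with shCtrl. The region at 110.5 kb (chr2:16190100-16192274) ranked 52446 and 42948 with PAX3-FOXO1, 816 and 708 with DMSO, and 1566 and 2052 with shCtrl. Regions at 298.0, 325.6, 77.0, 489.0 and 65.8 kb completed the 10 strongest of this class, with PAX3-FOXO1 ranks of 30288 to 95933 and no vector peak.

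In all, 61 of the 370 regions were open in all 4 RH30 controls, or 16.5%, against 12.8% of all regions. Of the 59 gained regions, 19 belonged to these, or 32.2%, against 12.9% of the gained regions of the genome. A further 21 were open in at least 1 RH30 library but not in all 4 controls, which made 40 of 59, or 67.8%, against 46% over the genome. The remaining 19 were open in no RH30 library. At a −log10 q of 10 or more the overlap was 12 of 43 gained regions, and 4 of 41 when a peak had to cover 50% of the region. Genome shares were not computed under these 2 rules, so whether the excess over the genome holds there is not known.

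Gained regions shared with the 4 RH30 controls ranked better and were wider than those open in no RH30 library. The median rank of the weaker PAX3-FOXO1 library was 95933 over the 19 shared regions and 126077 over the 19 regions open in no RH30 library, and 126077 too over the 21 between these classes. Over the genome the medians were 105376 for shared regions and 137001 for those open in no RH30 library, the same order. Their median widths were 1425 and 288 bp. Widths come from the merging of peaks of all libraries, so a region open in more libraries can only be wider. Of 5 gained regions ranked within 50000 in both PAX3-FOXO1 libraries, 4 were open in all 4 RH30 controls. The same share over the genome was not computed, so whether these counts set the locus apart is not known.

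**Figure D3:**
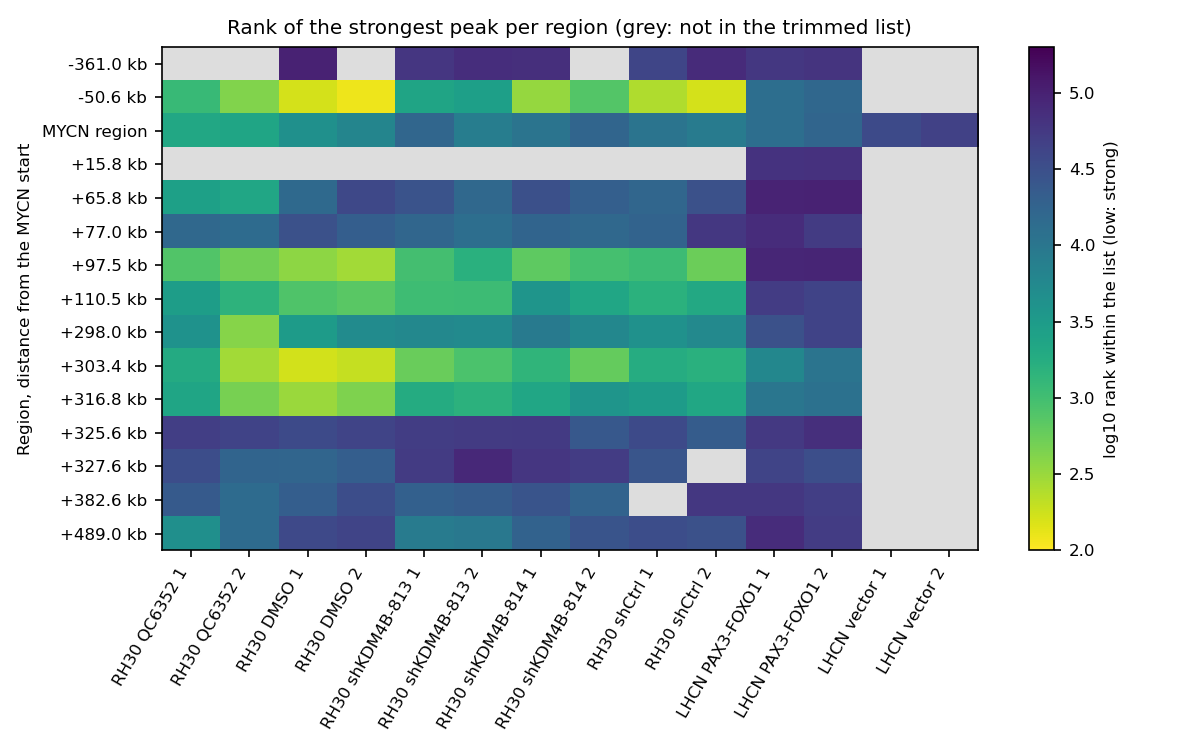
Within-list rank (colour, log10 of the rank, low is strong) of named regions of the MYCN locus, ordered by distance from the MYCN start, in each of the 14 libraries; grey cells have no kept peak, and the row of the MYCN region shows the best peak anywhere in it. The regions at 50.6 kb before and 303.4 and 316.8 kb after the start are strong in RH30, present with PAX3-FOXO1 and grey with vector.

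Within the shared regions, the positions of the summits were compared between both lines. Regions are merged from overlapping peaks, so summits in a narrow region lie close by construction. No value over the genome was taken. The median distance between a PAX3-FOXO1 summit and an RH30 control summit was 14 to 315 bp over the 19 regions, with 16 of them at 100 bp or less. At 50.6 kb before MYCN the distances ran from 86 to 102 bp, while the summits of the PAX3-FOXO1 libraries differed by 6 bp and those of the 4 controls by at most 10 bp. At 303.4 kb they ran from 118 to 127 bp, with spreads of 8 and 1 bp within the PAX3-FOXO1 libraries and the controls. At 97.5 kb they ran from 4 to 44 bp.

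The other 4 of the 10 strongest gained regions were not open in all 4 RH30 controls. The region at 15.8 kb after the start (chr2:16096353-16096640) ranked 66520 and 68337 with PAX3-FOXO1 and had no peak in any vector or RH30 list. Those at 327.6 kb and 382.6 kb ranked 42183 and 32419, and 58096 and 48295, with PAX3-FOXO1. Each had a peak in every RH30 list as deposited and missed only 1 shCtrl library after trimming. The region 361.0 kb before the start ranked 58096 and 63669 with PAX3-FOXO1. Its peaks in DMSO replicate 2 and QC6352 replicate 2 fell below the trimming. QC6352 replicate 1 and shKDM4B-814 replicate 2 had no peak there.

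The single region that closed with PAX3-FOXO1 lay at 714.2 kb (chr2:16794764-16794986). It was weak, at ranks 113501 and 148147 in the vector libraries, and no other library had a peak there.

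**Figure D4:**
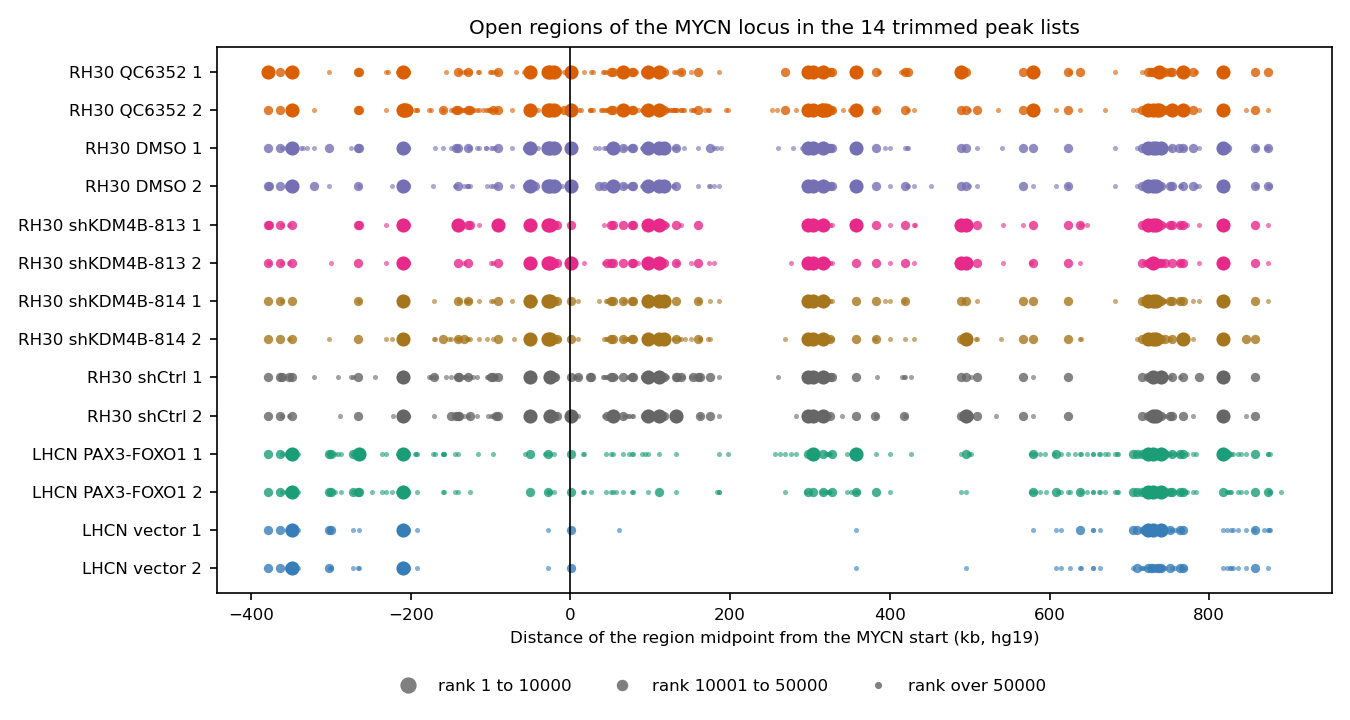
Map of all regions of the MYCN locus by distance from the MYCN start in kb (horizontal axis) and library (rows), each mark a region that is open in that library, larger for better ranks in 3 steps. The vector rows are nearly empty from 100 kb before to 600 kb after MYCN, where the PAX3-FOXO1 and RH30 rows are filled.

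Regions that were already open with vector also moved up the ranks with PAX3-FOXO1. By a rule added after seeing the data, a region open in all 4 libraries was counted if its ranks did not overlap and its geometric mean rank was at least 4 times better or worse. Of the 50 such regions, 7 ranked better with PAX3-FOXO1, or 14%, against 1.85% over the genome, and 0 ranked worse, against 0.419%. The region 28.2 kb before MYCN (chr2:16052230-16052808) ranked 11989 and 16332 with PAX3-FOXO1 and 130894 and 130410 with vector, a 9.34 times better rank. The region at 358.0 kb ranked 5718 and 10058 with PAX3-FOXO1 and 85886 and 103541 with vector, 12.4 times better. The others lay 265.1 kb before and 726.0, 729.4, 733.3 and 817.2 kb after the start.

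Open chromatin at MYCN itself was found in all 14 libraries, as 1 region of 5647 bp (chr2:16078925-16084571) that covers the start and the larger part of the gene. The strongest peak within 1 kb of the start ranked 23961 and 28577 with PAX3-FOXO1 and 35942 and 45650 with vector. The authors' fold there was 21.4 and 25.2 with PAX3-FOXO1 and 24.7 and 20.4 with vector, so the ranks were separate and the folds overlapped. In LHCN this summit stood 754 to 761 bp before the start in all 4 libraries. A further LHCN peak inside the gene, with summits 3524 to 3546 bp after the start, ranked 12727 and 16603 with PAX3-FOXO1 and 95096 and 82401 with vector. These groups did not overlap.

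In RH30 the peak at the MYCN start ranked 2109 and 2321 with QC6352 and 4454 and 6285 with DMSO. It ranked 16263 and 8026 with shKDM4B-813, 10812 and 16912 with shKDM4B-814, and 10803 and 8386 with shCtrl. QC6352 ranks were better than those of DMSO in both libraries, while both hairpins overlapped with shCtrl. The fold went the other way with QC6352, at 19.7 and 20.2, against 30.2 and 25 with DMSO. A fold depends on the background of its own library, and the ranks and folds are given only as the authors' values. The summit lay 61 to 62 bp after the start with QC6352 and 238 to 242 bp before it with DMSO. It lay 8 to 89 bp after it in the 4 KDM4B hairpin libraries, and 797 bp before and 67 bp after it in shCtrl replicates 1 and 2.

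Of 11 regions within 10 kb of MYCN, this was the only one open in all 14 libraries. A peak 4.2 kb after the start was seen in the compound experiment only, at ranks 53502 and 54327 with QC6352 and 97028 and 81036 with DMSO. A peak 7.5 kb before the start (chr2:16073035-16073395) was present in the QC6352 libraries, at 59991 and 25837, and in no other list. Peaks at 4.7, 5.8, 10.3, 10.7 and 13.4 kb were kept in 1 or 2 RH30 libraries each, and one at 9.3 kb was kept in both shKDM4B-814 and both shCtrl libraries. LHCN cells had none of these, beside the region at 15.8 kb with PAX3-FOXO1.

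The other 21 regions present in every library were compared with the strongest peak within 1 kb of the MYCN start, by the mean absolute log2 difference of ranks over the 14 libraries. The nearest was the region at 358.0 kb, with 0.976, or 1.97 times per library. Then came those at 766.6 kb (0.995), 753.4 kb (1.13), 733.3 kb (1.16) and 740.0 kb (1.24). Against the best rank anywhere in the MYCN region, which with PAX3-FOXO1 is that of the peak inside the gene, the nearest was again that at 358.0 kb, with 0.855.

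With QC6352 the share of called regions was near the background, while several strong regions differed in rank from DMSO. The trimmed QC6352 lists had 140 and 196 peaks in the locus, against 163 and 150 in the DMSO lists, with means of 168 ± 39.6 and 156.5 ± 9.19 (SD, n = 2 each). The difference of 11.5 was smaller than the spread between the QC6352 libraries (exact permutation p = 1). Of 269 regions open in any library of the experiment, 17 were gained, or 6.32%, against 6.39% over the genome, and 15 were lost, or 5.58%, against 7.38%. With no peak in the deposited lists of the other group, 14 were gained, or 5.2%, against 5.64%, and 9 lost, or 3.35%, against 5.25%. Without QC6352 replicate 1 the gained count was 77, and without replicate 2 it was 35. The lost count became 27 without QC6352 replicate 2, and 34 and 36 without DMSO replicates 1 and 2.

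The strongest gained region, 104.6 kb after MYCN (chr2:16184732-16185861), ranked 19471 and 14830 with QC6352 and had no DMSO peak. Next came the region at 268.4 kb, at 23058 and 29134, which was also gained with PAX3-FOXO1 in LHCN at 101871 and 126077. Those at 314.5 and 359.2 kb and 7.5 kb before the start followed. The strongest lost region, 349.6 kb before MYCN (chr2:15730674-15731407), ranked 38960 and 34167 with DMSO and had no peak in any other library of either line. Lost regions at 174.3 and 716.5 kb and 23.9 kb before the start had weaker QC6352 peaks below the trimming, and that at 718.6 kb had none.

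Of 71 regions open in all 4 libraries, 7 ranked at least 4 times better with QC6352 and 7 at least 4 times worse. Each is 9.86%, against 3.67% better and 4.39% worse over the genome. The region at 579.4 kb (chr2:16659679-16660476) ranked 908 and 2321 with QC6352 and 42519 and 56690 with DMSO, 33.8 times better. The region at 65.8 kb ranked 2682 and 2225 with QC6352 and 14881 and 38856 with DMSO, 9.84 times better.

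Both of the strongest DMSO regions of the locus were among those that ranked worse with QC6352. They were picked by their DMSO ranks, and this choice by itself favours worse ranks with QC6352. The region 50.6 kb before MYCN ranked 1181 and 420 with QC6352 and 161 and 122 with DMSO, 5.03 times worse. The region at 303.4 kb ranked 1934 and 284 with QC6352 and 167 and 193 with DMSO, 4.13 times worse, mostly through QC6352 replicate 1. The largest shifts of this kind were at 729.4 kb, with 43453 and 9283 for QC6352 and 1906 and 2412 for DMSO, and at 733.3 kb, with 48081 and 10746 for QC6352 and 2855 and 2412 for DMSO. Of the 61 regions open in the 4 RH30 controls, 1 was lost with QC6352, or 1.64%, against 6.12% of such regions over the genome.

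**Figure D5:**
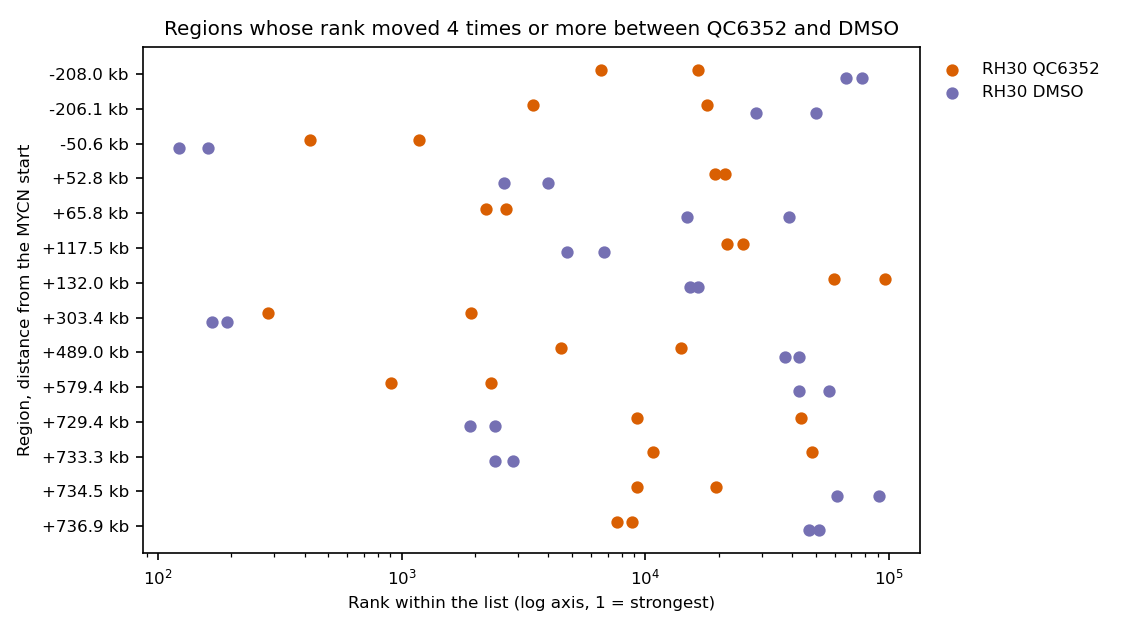
Within-list rank (log scale, 1 is strongest) in both QC6352 and both DMSO libraries for the 14 regions of the MYCN locus whose rank shifted at least 4 times. The region at 579.4 kb after the MYCN start moves most, at 908 and 2321 with QC6352 and 42519 and 56690 with DMSO.

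With shKDM4B-813 the share of lost regions was above that over the genome, and with shKDM4B-814 both shares were below it. With shKDM4B-813 the lists held 142 and 166 locus peaks, against 200 and 190 with shCtrl at the length of the shortest of these 4 lists. The means were 154 ± 17 and 195 ± 7.07 (SD, n = 2 each), a difference of -41 (exact permutation p = 0.333, adjusted 0.667). With shKDM4B-814 they held 113 and 141 peaks, against 136 and 113 with shCtrl at that shorter length, with means of 127 ± 19.8 and 124.5 ± 16.3 and a difference of 2.5 (exact permutation p = 1). Both hairpins were set against the same shCtrl libraries. Pooled with QC6352, KDM4 perturbation held 121 ± 25.6 peaks (SD, n = 6) and the controls 130.2 ± 11.8 (SD, n = 4), without regard to experiment. The tested quantity was the mean of the differences within the compound and hairpin experiments, -4 peaks, with an exact within-experiment permutation p of 0.767. It averages over unlike treatments and says nothing of any single one.

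Of 159 regions, 10 were gained with shKDM4B-813, or 6.29%, against 13% over the genome, and 16 were lost, or 10.1%, against 7.5%. Of 174 regions, 4 were gained with shKDM4B-814, or 2.3%, against 7.04%, and 7 were lost, or 4.02%, against 6.3%. With no peak in the deposited lists of the other group, shKDM4B-813 had 9 gained, or 5.66%, against 11.1%, and 7 lost, or 4.4%, against 3.33%. By that rule shKDM4B-814 had 1 gained, or 0.575%, against 5.24%, and 6 lost, or 3.45%, against 5.96%. With DMSO in place of shCtrl the counts were 6 gained and 26 lost for shKDM4B-813, and 14 lost for shKDM4B-814. Called against both kinds of control, 4 regions were gained and 3 lost with shKDM4B-813, and 1 gained and 1 lost with shKDM4B-814. Genome shares were not computed for the counts with DMSO or with both kinds of control, so no background stands beside them. Without shCtrl replicate 2 the lost counts became 47 and 35.

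The strongest region gained with shKDM4B-813 was that at 104.6 kb, at 36466 and 45704 with no shCtrl peak, the same region that led the QC6352 gains. Others lay 28.7 and 377.2 kb before and 638.1 and 874.0 kb after the start. Lost with it were regions at 174.3, 93.7, 162.6 and 418.3 kb and 139.4 kb before the start, at ranks of 32672 to 53016 and of 33406 to 45628 in shCtrl replicates 1 and 2. The gained region of best rank with shKDM4B-814 lay at 399.6 kb, and those at 819.8 kb and 129.7 and 114.0 kb before the start were weak.

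Of 187 regions open in any library of the hairpin experiment, 5 were lost with both hairpins, or 2.67%, against 4.22% over the genome. One lay inside MYCN, 5.2 kb after its start (chr2:16085588-16086079), at 53016 and 58763 with shCtrl, at 96501 below the trimming in shKDM4B-813 replicate 1, and with no peak in the other KDM4B hairpin libraries. In the compound experiment that region ranked 84191 in DMSO replicate 1 and 122057, below the trimming, in DMSO replicate 2, with no QC6352 peak. The others lay 117.6, 102.8, 93.4 and 18.8 kb before the start. Of these 5, only the region 18.8 kb before the start was open in both DMSO libraries, so the other losses rest on shCtrl alone. Of the 61 regions open in the 4 RH30 controls, 3 were lost with shKDM4B-813, or 4.92%, against 4.62% over the genome, and 1 with shKDM4B-814, or 1.64%, against 2.2%.

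Rank shifts with the hairpins were near the background. With shKDM4B-813, 2 of 53 regions open in all 4 libraries ranked at least 4 times better, or 3.77%, against 3.36% over the genome, and 1 ranked worse, or 1.89%, against 2.01%. The region that ranked worse was again that 50.6 kb before MYCN, at 2380 and 2717 with shKDM4B-813 and 244 and 162 with shCtrl, 12.8 times worse. With shKDM4B-814 it ranked 333 and 760, and 0 of 60 regions shifted by that rule, against 0.621% better and 0.42% worse over the genome. The region 28.2 kb before the start ranked 2380 and 1591 with shKDM4B-813 and 12428 and 10663 with shCtrl, 5.92 times better.

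The 59 regions gained with PAX3-FOXO1 in LHCN were also followed through the RH30 comparisons. With QC6352, 2 were gained, or 3.39%, against 1.83% of the gained regions of the genome, and 1 was lost, or 1.69%, against 5.67%. With shKDM4B-813, 2 were gained, or 3.39%, against 7.41%, and 0 lost, against 1.22%. With shKDM4B-814, 1 was gained, or 1.69%, against 3.96%, and 0 lost, against 0.605%.

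Of the 370 regions, 194 were open in RH30 alone, or 52.4%, against 32.2% of all regions. LHCN alone had 62, or 16.8%, against 36.2%, and both lines shared 114, or 30.8%, against 31.6%. There were 22 regions open in all 14 libraries, or 5.95%, against 8.05%, and 123 in a single library, or 33.2%, against 29.9%. Of the 61 regions open in the 4 RH30 controls, 25 were open in both vector libraries, or 41%, against 76.4% over the genome. Another 11 were open in no LHCN library, or 18%, against 11.6%. The best ranked region of vector cells, 209.9 kb before MYCN (chr2:15869826-15871695), ranked 957 and 1095 with PAX3-FOXO1 and 3187 and 4429 with vector. It lay within the top 1771 of every RH30 library, and was the best ranked region of the locus with PAX3-FOXO1 and with shKDM4B-814 as well. With QC6352 the best ranked was that at 97.5 kb, at 777 and 518, and with shKDM4B-813 that at 303.4 kb, at 572 and 855.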

How the data were processed

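Peak lists of 14 ATAC-seq libraries, 1 list per library, were used, with groups and replicate numbers taken from the sample titles. The genome build was hg19 and MACS2 2.1.1, SAMtools 1.3.1, Picard 1.65 and BWA 0.7.12-r1039 were used, per the submitters' processing notes. The sources used here give neither settings nor a correction for the Tn5 cut. The authors deposited for each peak a fold, which is a ratio over background, a −log10 q and a summit offset, all given by their peak caller; the deposited score and −log10 p were not used. The lowest deposited −log10 q was 2.00 to 2.60. Read depth is unknown, so no counting interval is given.

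Peaks were ranked by −log10 q, then fold, then position, and printed ranks are averaged over peaks tied on −log10 q and fold. Lists were trimmed to 170390 (LHCN), 105136 (compound) or 93488 peaks (hairpins, and comparisons across experiments), and the kept peaks of all 14 were merged into regions. Gained means open in both treated and in neither control library, and lost the reverse. Distances run from the MYCN start to the middle of the region. Peak numbers were compared by exact two-sided permutation of libraries with Benjamini-Hochberg adjustment, using Python 3.11.15, pandas 2.3.3, numpy 2.4.6 and scipy 1.17.1. The calling code, not the calls themselves, was checked on simulated presence data. Whether replicates came from separate cultures is not in the labels, so each p covers library-to-library spread that may be purely technical.

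Named regions are those within 10 kb of MYCN, the 10 strongest gained with PAX3-FOXO1, the 10 strongest of these open in RH30 controls, and the 5 strongest per direction for each KDM4 comparison, by the worst rank of the libraries that define the class, and the best ranked region of each group. The locus and these lists were chosen with earlier results of these data known; the rank shifts, the share of flanks, the likeness to the start peak, the tie alternatives and the E2F-type motif were added after seeing the data. The position of MYCN was given with the choice of the locus, and no hg19 sequence or annotation was used. Alternatives were the lists as deposited, a −log10 q of 10 or more, a cover of 50%, regions from 1 experiment, other handling of ties, DMSO as hairpin control, a replicate block and each library left out. Same-numbered libraries did not deviate together (correlations of -0.01 to 0.01 over regions), so the numbers do not pair them.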

Additional observations from a re-analysis of the deposited data

Results flagged for a closer look

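At 3 of the named regions every library moved one way with QC6352 and the opposite way with both KDM4B hairpins, each against its own controls. Among all 308 locus regions open in RH30, 5 had this pattern, or 1.62%, against 3.58% over the genome. More regions moved the same way with QC6352 and both hairpins, 10 or 3.25%, against 3.71% over the genome. Neither pattern was tested against the genome. Of the 3 named regions, those at 399.6 and -93.4 kb were named because they were called with the hairpins. The region 303.4 kb after the MYCN start ranked 1934 and 284 with QC6352 and 167 and 193 with DMSO, thus worse with the compound. It ranked 572 and 855 with shKDM4B-813 and 1393 and 610 with shKDM4B-814, better than 1786 and 1622 with shCtrl. The region at 399.6 kb (chr2:16480156-16480471) had no QC6352 peak and ranked 61630 and 101828 with DMSO. It ranked 80523 and 59148 with shKDM4B-813 and 70985 and 72805 with shKDM4B-814, with no shCtrl peak, and 66520 and 85714 with PAX3-FOXO1, with no vector peak. The region at -93.4 kb, before the start, ranked 76730 and 50048 with QC6352, while DMSO had no peak in replicate 1 and 101828 in replicate 2. It was lost with both hairpins, with only weak peaks at 126164 and 106165 with shKDM4B-813 and none with shKDM4B-814, and ranked 85345 and 40831 with shCtrl.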

How the results depend on the processing

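Over 101 alternatives other than leaving out a library, 76 kept the result. For counts this means a change within 1.5 times, and for differences in peaks the same sign and call, whatever the size. Of the others, 1 lost its call, 17 counts moved by over 1.5 times and 7 differences turned round. The cause of these changes was not tested. For QC6352 the difference in peaks kept its sign and call. It was 74.5 with the lists as deposited and 0.5 with peaks tied at the cut left out, against 11.5. With the lists as deposited, 27 regions were gained with QC6352, and 1 was gained and 23 lost with shKDM4B-814. The difference in peaks was then -75.5 for shKDM4B-814, 63 for RH30 against LHCN (exact permutation p = 0.116) and 7.25 for KDM4 perturbation. At a −log10 q of 10 or more, 2 regions were lost with PAX3-FOXO1, 5 gained and 5 lost with QC6352, 1 lost with shKDM4B-813 and 2 lost with shKDM4B-814. At that limit 38 regions were open in RH30 controls, 12 of them gained, and the differences were 12.5 for shKDM4B-813, -13.35 for RH30 against LHCN and 5.375 for KDM4 perturbation. With a cover of 50%, 2 were lost with PAX3-FOXO1, 15 open in RH30 controls and 4 both gained and open. Trimming cuts through peaks tied on −log10 q and fold. Leaving these out gave -0.5 and adding them gave -21.5 for the difference with shKDM4B-814, and adding them gave 12 regions lost with it. With DMSO as control, 6 were gained and 26 lost with shKDM4B-813, and 14 lost with shKDM4B-814.

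Leaving out 1 library at a time gave 64 to 89 regions gained and 1 to 5 lost with PAX3-FOXO1, 20 to 77 and 20 to 36 with QC6352, 12 to 18 and 20 to 47 with shKDM4B-813, and 8 to 26 and 12 to 35 with shKDM4B-814. It gave 64 to 68 regions open in RH30 controls and 19 to 22 also gained. A group left with 1 library calls more regions by construction. The differences in peaks were 84 to 102 for PAX3-FOXO1, 60.37 to 75.37 for RH30 against LHCN, -53 to -29 for shKDM4B-813, -16.5 to 39.5 for QC6352, -11.5 to 16.5 for shKDM4B-814 and -11.5 to 3.5 for KDM4 perturbation. With a replicate block the differences stayed at 93, 11.5, -41, 2.5 and -4, with exact permutation p of 0.5, 1, 0.5, 1 and 0.778 for PAX3-FOXO1, QC6352, shKDM4B-813, shKDM4B-814 and KDM4 perturbation; it changed no call.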
